A study of Musca domestica with 29 samples.

Results

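The female-biased head genes described here are 150 of the 16540 genes measured in house fly (Musca domestica) heads and abdomens. They were chosen on the values themselves. A member carries a LOC identifier, lies outside Muller elements A and F, and was read at 20 normalized reads or more in every female head. It also stood higher in every female head than in any male head, with a female over male ratio of the head means above 2-fold, and it was at most 4-fold higher in male than in female abdomens. Ratios are of means plus 1, here as log2 of female over male. Of 14136 eligible genes, 551 met the head conditions, 282 of these were removed by the abdomen condition, and the 150 with the highest head ratio of the remaining 269 were taken. The female over male difference in head is therefore a description and carries no test.

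Sex in the house fly is set by a male-determining factor that can lie on the Y chromosome or on other chromosomes, among them chromosome III. The factor acts on the splicing of transformer, which in turn sets the female or male form of doublesex and fruitless, and these forms direct sex differences in the body and the nervous system. In Drosophila melanogaster, genes that are higher in female than in male heads include products of the fat body around the brain, such as yolk proteins. No symbol other than a LOC identifier, and no product, was given for any of the 150 members in the tables used here, so no role is given for them.

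RNA was taken from single dissected flies, with head and abdomen as separate samples, and poly(A) libraries were made with a stranded kit. The 3 female head libraries each came from another strain: IsoCS, CSrab and CS. The 2 female abdomens came from IsoCS and CSrab. Females were labelled as isogenic to each other. The 12 male libraries of each tissue came from 4 genotypes with 3 replicates each. YM males (strain IsoCS) carry the male-determining factor on the Y and were labelled as isogenic but for that chromosome. YM(III) males (strain bwbCS) differ also in 1 copy of chromosome III. IIIM #1 males (strain CS) and IIIM #2 males (strain CSrab) carry the factor on chromosome III and are labelled as isogenic but for it. With 1 library per strain, the spread among female heads holds both strain and fly. In whole heads, fewer cells of a type and less RNA per cell cannot be told apart.

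Female heads held 28.99 to 29.84 M reads and male heads 5.8 to 39.24 M. Female abdomens held 13.9 and 30.53 M and male abdomens 0.79 to 43.47 M, with the lowest depth in YM replicate 2 and IIIM #2 replicate 2. Male heads of replicate 3 stood apart. On the first principal component of all heads, which took 30.1% of the variance, female heads lay at 26.1 to 34.1, male replicate 3 at 28.4 to 73.1 and male replicates 1 and 2 at −64.3 to −27.4. The head ratios are therefore also given against replicate 3 alone. Of 20 marker genes sought, 4 carry a name in the tables. Yolk protein gene yp3 stood at 582, 608 and 6560 normalized reads in IsoCS, CSrab and CS female heads and at 24.3 to 149 in male heads. The egg-polarity gene bcd stood at 0.654, 0 and 0 in female heads and at 0 in all male heads, against 181 and 78.2 in female abdomens. Sxl stood at 1022 to 1268 in female heads and 1190 to 2022 in male heads, and pdf, a neuropeptide gene of clock neurons in Drosophila, at 562 to 624 in female heads and 411 to 1620 in male heads.

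Members were 2.42-fold to 208-fold higher in female heads than in male heads, with a median of 3.07-fold (log2 1.62). The difference was at least 4-fold in 35 members, at least 8-fold in 19 and at least 16-fold in 7. Over all 12234 genes with 10 normalized reads in 3 or more heads, 5.25% met the same head conditions. The lowest female head was at least 2 times the highest male head for 27 members, and over the 150 the median of that ratio was 1.501. The members held 3.81%, 4.64% and 4.06% of all normalized reads in the IsoCS, CSrab and CS female heads, and 1.03% to 1.79% in male heads.

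**Figure D1:**
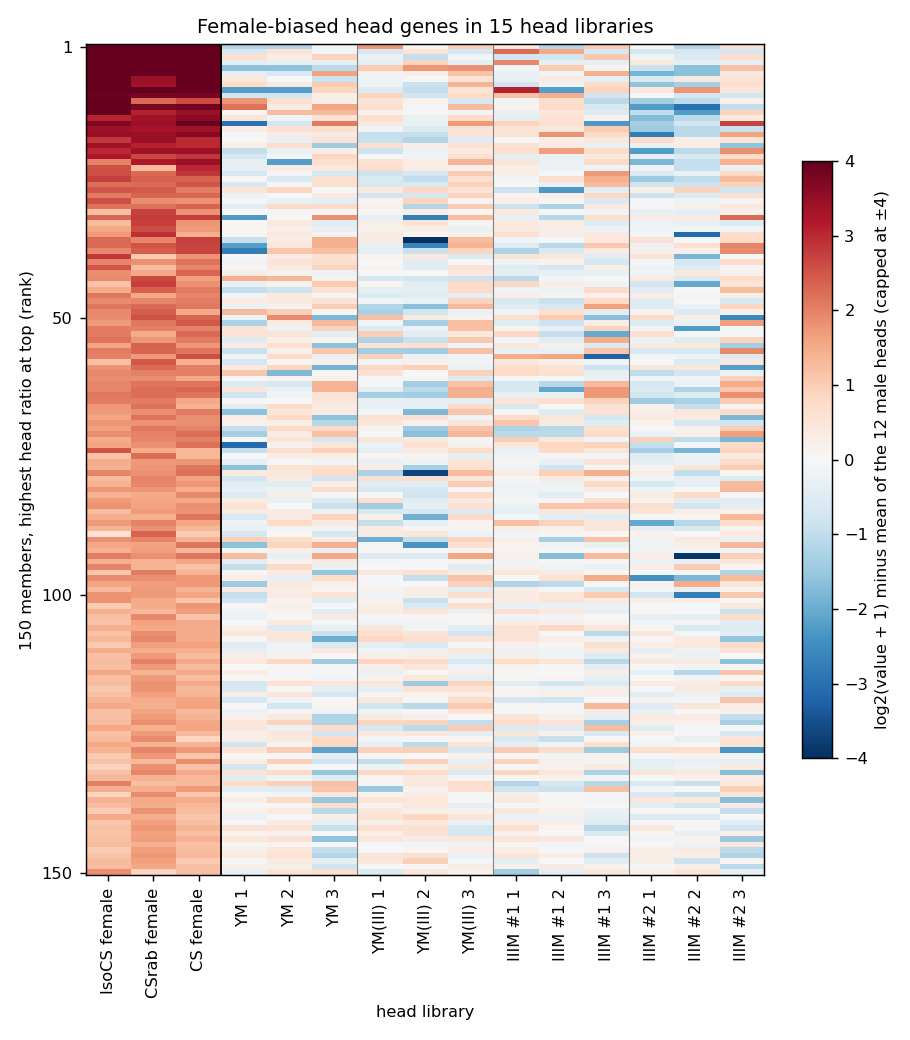
Each row is 1 of the 150 members, ordered by head ratio, and each column is 1 head library, with the 3 females left of the 12 males. Colour gives log2(value + 1) minus the mean of the male heads. The female columns are red throughout, as the choice of members requires, while male columns vary around 0, and several rows differ between male replicate 3 and the other replicates.

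The size of the female excess is also given strain by strain, with each female library set against the 3 males of its own strain. Its direction was fixed by the choice of members, which put every female head above every male head. The IsoCS female head was over 2-fold above YM (IsoCS) males for 137 members, with a median of 2.83-fold. The CSrab female was over 2-fold above IIIM #2 (CSrab) males for 145 members, with a median of 3.51-fold. The CS female was over 2-fold above IIIM #1 (CS) males for 142 members, with a median of 2.86-fold. In all 3 strains at once, 124 of 150 members passed 2-fold. Against male replicate 3 alone the median was 2.97-fold, with 129 members over 2-fold and a lowest log2 ratio of 0.55. Against male replicates 1 and 2 it was 3.51-fold, with 145 members over 2-fold and a lowest log2 ratio of 0.88. The list itself depended on these replicates. With the rule set on male replicate 3 only, 57 of the 150 highest genes are members, and on replicates 1 and 2 only, 81 are.

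The limit of the list fell within a run of nearly equal ratios. LOC101897077 and LOC101896163, just inside, had log2 ratios of 1.274 and 1.272, and LOC101891134 and LOC101894414, just outside, had 1.266 each. LOC101897077 stood at 1126, 1379 and 1069 in female heads, against 224 to 612 (median 536) in male heads. LOC101896163 stood at 107, 52.8 and 67.7 in female heads, against 10.6 to 45.1 (median 32.9) in male heads.

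The member with the highest ratio was LOC101900313, a protein-coding gene on element E. It stood at 726, 580 and 425 normalized reads in IsoCS, CSrab and CS female heads, and at 0 to 6.4 (median 1.38) in male heads, a 208-fold difference. The lowest female head was 66.4 times the highest male. In abdomen the same gene was low, at 14.3 and 9.83 in females and 0 to 7.66 in males. Head and abdomen values were normalized separately and are set side by side here and below without a test.

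LOC101893397 and LOC101896469 combined a high level with a high ratio. LOC101893397 (element B) stood at 12586, 9214 and 9113 in female heads, against 56.6 to 233 (median 100) in male heads, an 83.3-fold difference. Its abdomen levels did not follow that pattern, with 677 and 163 in females and 227 to 1243 in males. LOC101896469, with no element given, stood at 47750, 45151 and 38069 in female heads, against 229 to 2521 (median 825) in male heads, a 41.5-fold difference. Among males it was highest in replicate 3 of every genotype, at 1082 to 2521, whereas replicates 1 and 2 held 229 to 968. In abdomen it stood at 406 and 341 in females and 80.9 to 1114 in males, so the sexes overlapped there.

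A pair of members near the top, LOC101891084 and LOC101893501, were far more abundant in female abdomens. LOC101891084 stood at 53.6, 58.9 and 547 in IsoCS, CSrab and CS female heads, against 0 to 6.74 (median 0) in male heads. In abdomen it stood at 4906 and 4026 in females, against 0 to 119 (median 1.86) in males. LOC101893501 stood at 20.3, 57.4 and 144 in female heads, against 0 to 3.85 (median 0) in male heads, and at 3208 and 3404 in female abdomens, against 0 to 55.4 (median 1.27) in male abdomens. Both were highest in the CS female head, the library in which yp3 was also highest, while bcd was at or near 0 in all female heads. The part of RNA from other tissues in these head values was not tested.

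The next members had lower levels. LOC101887368 (element B) stood at 357, 64.9 and 152 in female heads, against 0 to 10.1 (median 2.13) in male heads. LOC101895142 (element D) stood at 193, 38.5 and 148 in female heads, against 0.98 to 4.32 (median 2.61) in male heads. For both genes the CSrab female was the lowest of the females, and neither reached 10 normalized reads in any abdomen. LOC101890773 (element E) stood at 301, 121 and 247 in female heads, against 2.82 to 28.8 (median 11.7) in male heads.

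LOC101893120 had opposite ratios in the tissues. It stood at 88.9, 81.5 and 132 in female heads, against 0 to 38.5 (median 5.2) in male heads, and at 1225 and 657 in female abdomens, against 515 to 5422 (median 2178) in male abdomens, where the sexes overlapped. LOC101891265 was the lowest of the 12, at 24.9, 22.6 and 22.6 in female heads, against 0 to 3.62 (median 0.353) in male heads. LOC101891757 (element C) stood at 264, 44.5 and 56.8 in female heads, against 2.82 to 31.1 (median 9.57) in male heads. LOC101892752 (element B) stood at 158, 106 and 115 in female heads, against 0 to 34.9 (median 8.26) in male heads, with its 3 lowest male values in IIIM #2. Of the 12 members with the highest ratios, 6 did not reach 10 normalized reads in 3 abdomens.

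**Figure D2:**
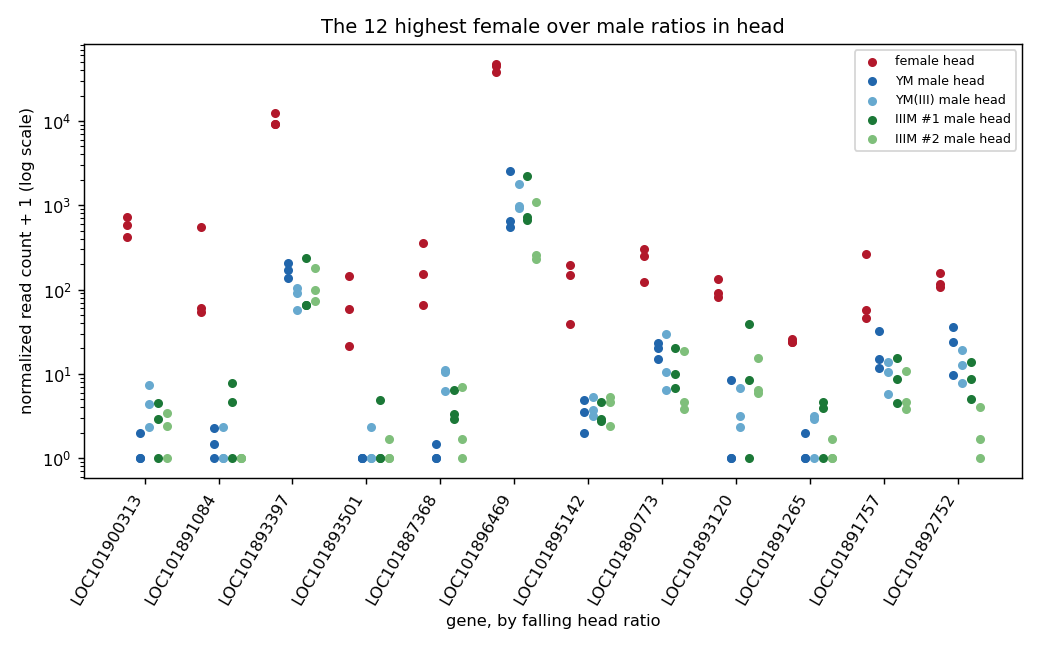
The 12 members with the highest female over male ratio in head, with normalized read count plus 1 on a log axis and 1 point per head library, females left of the 4 male genotypes. In LOC101896469 the 3 females lie between 38069 and 47750 and the males between 229 and 2521.

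Members abundant in female heads had a lower median ratio than the whole list. Normalized reads are not per gene length here, so levels are not compared between genes beyond this grouping. The 31 members with a mean over 5000 in female heads had a median log2 ratio of 1.39, beside 1.62 over the 150. The 31 are part of the 150, and the ratio and female level entered the choice of members, so this is a description only. Among the 31, LOC101893397 was the highest at 6.38, and LOC101896469 stood at 5.37. LOC101899175 (element C) was the most highly read, at 140527, 211161 and 172737 in IsoCS, CSrab and CS female heads, against 13535 to 82519 (median 61483) in male heads. In its abdomen values the sexes overlapped, with 46406 and 43701 in females and 36868 to 91376 in males. LOC101892236, LOC101893752 and LOC101900164 had mean levels of 36527 ± 8453, 35400 ± 6829 and 34596 ± 6859 in female heads (SD, n = 3 each). Their means in male heads were 15061 ± 5720, 14084 ± 7870 and 13732 ± 4036 (SD, n = 12 each).

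By median, these abundant members and the others moved in opposite ways with replicate in the male heads. The 31 abundant members were lower in male replicate 3 than in replicates 1 and 2 by a median log2 of −0.40, and 22 of the 31 were lower. The other 119 members were higher in replicate 3, by a median log2 of 0.44, and 86 of the 119 were higher. The median over all genes tested among males was 0.03. All genes were not split by level in the same way, so the pattern is not read as particular to the members. LOC101899175 showed the first pattern: male replicate 3 stood at 13535 to 41658, against 57307 to 82519 in replicates 1 and 2. LOC101896469, described above and also 1 of the 31 abundant members, showed the opposite. The labels do not say what sets replicate 3 apart.

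**Figure D3:**
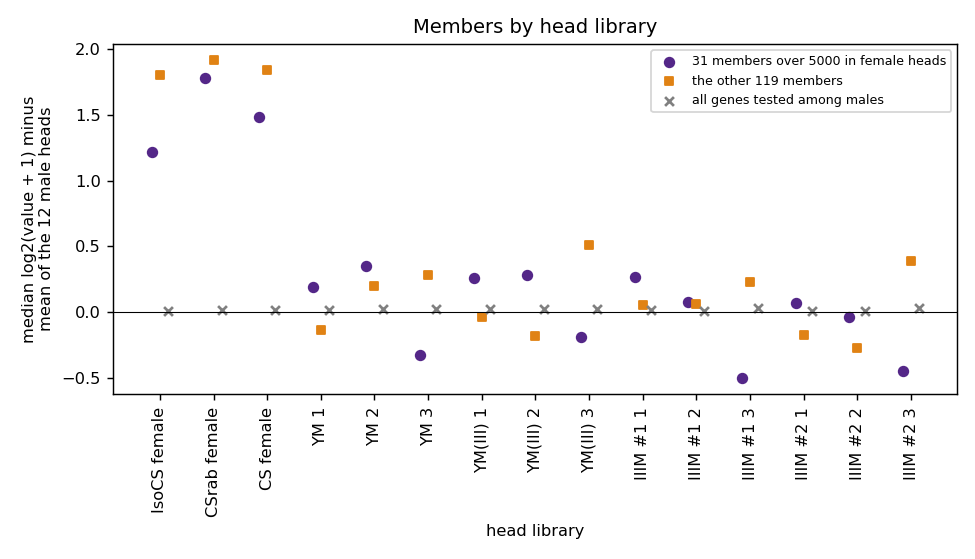
Median over members of log2(value + 1) minus the mean of the 12 male heads, for each head library: circles, the 31 members over 5000 in female heads; squares, the other 119; crosses, all genes tested among males. Female heads lie between 1.22 and 1.92, and in male replicate 3 the circles lie below 0 and the squares above it in all 4 genotypes.

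Among the females, 68 members were highest in the CSrab head, 46 in the CS head and 36 in the IsoCS head. The share highest in CSrab was 45.3%, against 37.7% of all genes with 10 normalized reads in 3 heads. Of the 31 abundant members, 25 were highest in CSrab, 5 in IsoCS and 1 in CS. Other genes of like level were not counted, so this is not read as particular to the members. The ratio of the highest to the lowest female head had a median of 1.47 and was under 1.5 for 83 members and at least 2 for 23. LOC101888454 was the most even, at 88.3, 86.8 and 85.5 in female heads, against 3.64 to 48.4 (median 19.5) in male heads. LOC101896294 stood at 1477, 1532 and 1485 in female heads, against 411 to 770 (median 619) in male heads. LOC101892417, annotated as a pseudogene, stood at 84.4, 84.5 and 88.3 in female heads, against 10.3 to 51.1 (median 27.1) in male heads. Its reads could in part belong to a parent gene of like sequence, which was not tested.

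In 10 members 1 female head stood at least 2 times above both others. That female was CS for LOC101891084 and LOC101893501, the widest and second widest of the list with ranges of 10.03 and 6.83. It was IsoCS for 4 members: LOC101887368, LOC101891757, LOC101888349 and LOC109613867. It was CSrab for the other 4: LOC101892714, LOC105261882, LOC101891654 and LOC101896636. Members outside the widest were named after their values were seen. With 1 library per strain, strain and fly cannot be told apart in these differences.

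Of the members read in abdomen, most were under 2-fold higher in females. In abdomen, 110 of the 150 members reached 10 normalized reads in 3 or more libraries. The 40 that did not are 26.7% of the list, against 15.4% of all genes that reached the same level in head. Of the 110, 37 were at least 2-fold higher in female abdomens (33.6%, beside 28.9% of all 11486 genes at that level), 50 lay within 2-fold, and 23 were at least 2-fold higher in male abdomens (20.9%, beside 45.7% of all genes). The choice of members removed 282 genes that were over 4-fold higher in male abdomens, which lowers the male-higher shares and raises the female-higher ones, so nothing is read from their distance to all genes. Both female abdomens lay above every male for 40 of the 110 (36.4%, beside 30.5% of all genes), and below every male for 3 (2.73%, beside 31.2%). In both female abdomens 11 members were at 0 (7.33%, beside 6.53% of all genes that reached 10 normalized reads in 3 heads).

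In 14 of the 110 members the female abdomens were at least 8-fold higher (12.7%, beside 5.55% of all genes at that level), a share also raised by the abdomen condition. Of these 14, 3 passed 8-fold in head. After LOC101893501 (297-fold) and LOC101891084 (220-fold), the highest was LOC101895329 on element E, at 4297 and 7186 in female abdomens, against 8.8 to 107 (median 23.3) in male abdomens. In head the same gene stood at 81.8, 80.7 and 55.4 in females, against 6.35 to 39.4 (median 19.2) in males. LOC101896591 (element B) stood at 3091 and 2956 in female abdomens, against 11 to 203 (median 69.7) in male abdomens, while its female heads stood at 110, 102 and 93.1.

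Some members were higher in female heads and lower in female abdomens. LOC101887803 (element E) stood at 22260, 30757 and 28423 in IsoCS, CSrab and CS female heads, against 7280 to 12797 (median 9963) in male heads. In abdomen it stood at 2709 and 1741 in females, against 4609 to 12823 (median 8777) in males. The sexes did not overlap in either tissue, and the direction was opposite. LOC101888717 showed the same, with 143, 177 and 213 in female heads against 4.23 to 28.3 in male heads, and 38.8 and 17 in female abdomens against 50.8 to 223 in male abdomens. LOC101890741 (element C) stood at 20729, 20023 and 19634 in female heads against 5908 to 11062 in male heads, and at 1441 and 905 in female abdomens against 2009 to 4689 in male abdomens. The lowest abdomen ratios were those of LOC101895793 (log2 −1.99), LOC101887803 (−1.99) and LOC101891573 (−1.98), all just above the limit that the rule set at −2. LOC101895793 and LOC101891573 had at most 30.1 normalized reads in any abdomen.

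**Figure D4:**
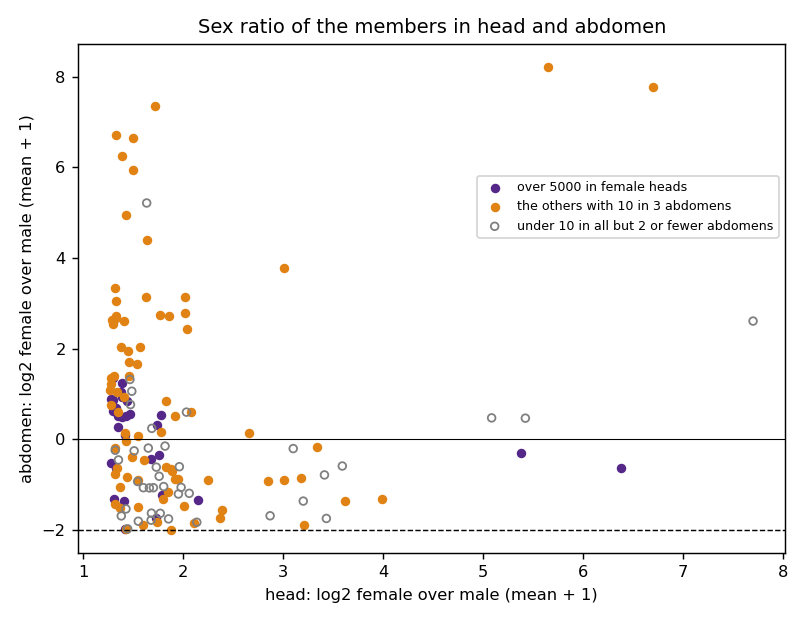
Log2 female over male of each member in head (x axis) and in abdomen (y axis), from means plus 1 of separately normalized tables. The dashed line is the abdomen limit of −2, and open circles are members without 10 normalized reads in 3 abdomens. Of the 31 abundant members, the 30 that reached that level are marked apart. Head ratios run from 1.27 to 7.70, with most points near the lower end, while abdomen ratios run from −1.99 to 8.21.

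By Muller element, 38 members lie on C (25.3%, beside 18.7% of the 14136 eligible genes), 30 on B (20%, beside 14.97%), 30 on E (20%, beside 22.3%) and 18 on D (12%, beside 16.9%). No element is given for 34 (22.7%, beside 27.1%). Of the 138 members found in the RefSeq gene table, 132 are protein-coding, 4 are long non-coding RNAs and 2 are pseudogenes, and 12 were not found in it. The shares are a description of the list.

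Differences among the male genotypes were tested with limma over all genes and Benjamini-Hochberg adjustment at 0.05. The choice of members set no genotype against another. It did hold every male head below the lowest female head, which limits how high a genotype can stand, so in head nothing is read from the members' share of calls beside that of all genes. The question behind them is whether male heads that carry the factor on the Y or on chromosome III differ in female-biased transcripts. In head, 142 members had 10 normalized reads in 3 male libraries. The limma F test over the 4 genotypes called 0 of the 142, beside 1.08% of all 12060 genes. At an unadjusted p under 0.05 it gave 12 members, beside 908 of all 12060 genes. edgeR called 0 (1.01% of all genes) and DESeq2 7 (4.17%). In these fits the spread within a genotype also holds the difference of replicate 3. The head libraries were therefore also treated as paired by replicate number. At an unadjusted p under 0.05 the blocked limma F test gave 22 members, beside 2169 of all 12060 genes. With the replicate as a block, limma called 4 members: LOC101892892, LOC101896469, LOC101898361 and LOC109611884 (2.95% of all genes).

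LOC109611884, a protein-coding gene on element B, was the 1 member called between YM and IIIM heads. It stood at 458, 510 and 591 in YM heads and 265, 348 and 422 in YM(III) heads, against 116, 159 and 121 in IIIM #1 heads and 169, 142 and 352 in IIIM #2 heads. Pooled, YM males rose over IIIM males by log2 1.35 (SE 0.23, limma adjusted p = 0.0346, n = 6 each). The groups overlapped through 1 library, IIIM #2 replicate 3. Over all genes 0.473% were called, 0.29% as higher. With the replicate as a block the adjusted p was 0.0102, and again 1 member was called (1.04% of all genes). Leaving out 1 male head at a time ended the call in 11 of 12 cases, with adjusted p from 0.00661 to 0.131, and it was kept without IIIM #2 replicate 3. Female heads stood at 1051, 598 and 640, the highest in IsoCS, so the highest YM head lay just under the lowest female, close to the limit of the rule. In abdomen LOC109611884 was also called among the male genotypes (limma F test adjusted p = 0.0402, 1 of 108 members; 2.72% of all 11342 genes). There it stood at 523, 299 and 285 in YM, 172, 189 and 357 in YM(III), 46.2, 82.5 and 104 in IIIM #1 and 132, 167 and 183 in IIIM #2, beside 29.8 and 126 in females. Its abdomen call was lost in 10 of 12 leave-one-out fits (adjusted p 0.0297 to 0.144), with TMM factors (0.0549), with a pseudocount of 0.1 (0.0512) and with edgeR (0.0671). Pooled YM over IIIM in abdomen gave log2 1.38 (SE 0.27, limma adjusted p = 0.167).

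Without the block, limma gave no call in the other head comparisons. Between YM and YM(III) heads limma called 0 of 142 members (0.804% of all genes). At a limma unadjusted p under 0.05 there were 8, beside 926 of all 12060 genes. edgeR called 0 (0.713%) and DESeq2 2 (2.85%). Between IIIM #1 and IIIM #2 heads limma called 0 (0.174% of all genes). At a limma unadjusted p under 0.05 there were 8, beside 536 of all 12060 genes. edgeR called 0 (0.0995%) and DESeq2 1 (0.63%). The replicate block called 1 there (0.307% of all genes), LOC101892892 on element B. It stood at 176, 165 and 250 in IIIM #1 heads and 45.2, 58.2 and 66.1 in IIIM #2 heads, with no overlap (log2 1.78, SE 0.23, blocked limma adjusted p = 0.0122). YM heads held 151, 190 and 203 and YM(III) heads 113, 82.3 and 176, and the female heads 1312, 1229 and 1271. The authors' deposited table, whose means follow replicates 1 and 2, called 11 of 143 members between CSrab (IIIM #2) and CS (IIIM #1) male heads, 2 higher and 9 lower in CSrab, beside 5.96% of all genes. For bwbCS (YM(III)) over IsoCS (YM) male heads the authors' deposited table called 8 of 138 members, 1 higher and 7 lower, beside 7.37% of all genes. For CS (IIIM #1) over IsoCS male heads it called 2 of 139, both lower, beside 3.18% in the authors' deposited table. For CSrab over IsoCS male heads it called 5 of 142, all lower, beside 4.24% in the authors' deposited table.

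In abdomen, YM and YM(III) males differed in 5 of 108 members, 3 higher and 2 lower in YM (limma adjusted p under 0.05; the share of all genes was 9.23%, with 7.56% higher and 1.68% lower). LOC101893395 (element B) stood at 36.9, 53.6 and 37 in YM abdomens and 11.1, 3.86 and 3.29 in YM(III) abdomens (log2 2.76, SE 0.56, limma adjusted p = 0.0155). LOC101890177, a long non-coding RNA on element C, stood at 21.3, 23 and 13.5 in YM and 0, 2.89 and 4.38 in YM(III) (log2 2.84, SE 0.65, limma adjusted p = 0.0241). Female abdomens held 38 and 46 of it, above every male. LOC101896591 stood at 203, 176 and 203 in YM and 80.3, 45.3 and 11 in YM(III) (log2 2.45, SE 0.61, limma adjusted p = 0.0322), both far below the female abdomens given above.

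The lower pair, named after their values were seen, were LOC101896294 and LOC101894179. LOC101896294 stood at 240, 299 and 243 in YM abdomens and 457, 451 and 589 in YM(III) abdomens (log2 −0.93, SE 0.24, limma adjusted p = 0.0356). LOC101894179 stood at 226, 138 and 146 in YM and 396, 642 and 335 in YM(III) (log2 −1.40, SE 0.39, limma adjusted p = 0.0486). For none of the 5 did the YM and YM(III) libraries overlap. They were picked by their call in this comparison, which makes that likely, so it is no further support.

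These calls changed with the libraries and with the block. Without the pair of libraries under 1 M reads none of the 5 was called, nor was any member without YM replicate 1 or without YM replicate 2. Calls over all genes fell as well, from 1047 in the main fit to 247, 254 and 342 in that order. Limma called 1 member without YM(III) replicate 3 (508 over all genes) and 2 without IIIM #1 replicate 2 (806 over all genes). It called 3 without each of YM replicate 3, YM(III) replicate 1, YM(III) replicate 2 and IIIM #2 replicate 1. Over all genes these fits called 927, 522, 994 and 781 in that order. With the replicate as a block, limma called 19 members, 4 higher and 15 lower in YM, the 5 above among them. Over all genes the block called 21%, with 12.8% higher and 8.18% lower. That block set a replicate effect shared by all 4 genotypes. In abdomen, same-numbered replicates correlated as low as 0.0686, between YM and IIIM #2 in replicate 1. The 15 lower ones ran from log2 −1.44 to −0.59, and 9 of them are among the 31 abundant members. The median log2 over the 108 members was −0.49, beside −0.04 over all genes tested. It rested on 1 library: without YM(III) replicate 3 it was 0.01, beside 0.01 over all genes. Between YM and IIIM abdomens limma called 0 of 108 members (0.0265% of all genes). At a limma unadjusted p under 0.05 there were 6, beside 727 of all 11342 genes. edgeR called 0 (0.0265%) and DESeq2 1 (1.19%). In the authors' deposited table, bwbCS over IsoCS male abdomens gave 1 of 114 members, higher in bwbCS, beside 10% of all genes. CS over IsoCS male abdomens gave 7 of 96 in the authors' deposited table, 5 higher and 2 lower in CS, beside 4.94%. CSrab over IsoCS male abdomens gave 1 of 88 in the authors' deposited table, lower in CSrab, beside 5.13%, and CSrab over CS gave 0 of 101, beside 1.87%. The replicates are called biological in the design, with no culture named. The p-values of fits without the block therefore measure the spread between these flies together with any difference between replicate numbers.

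**Figure D5:**
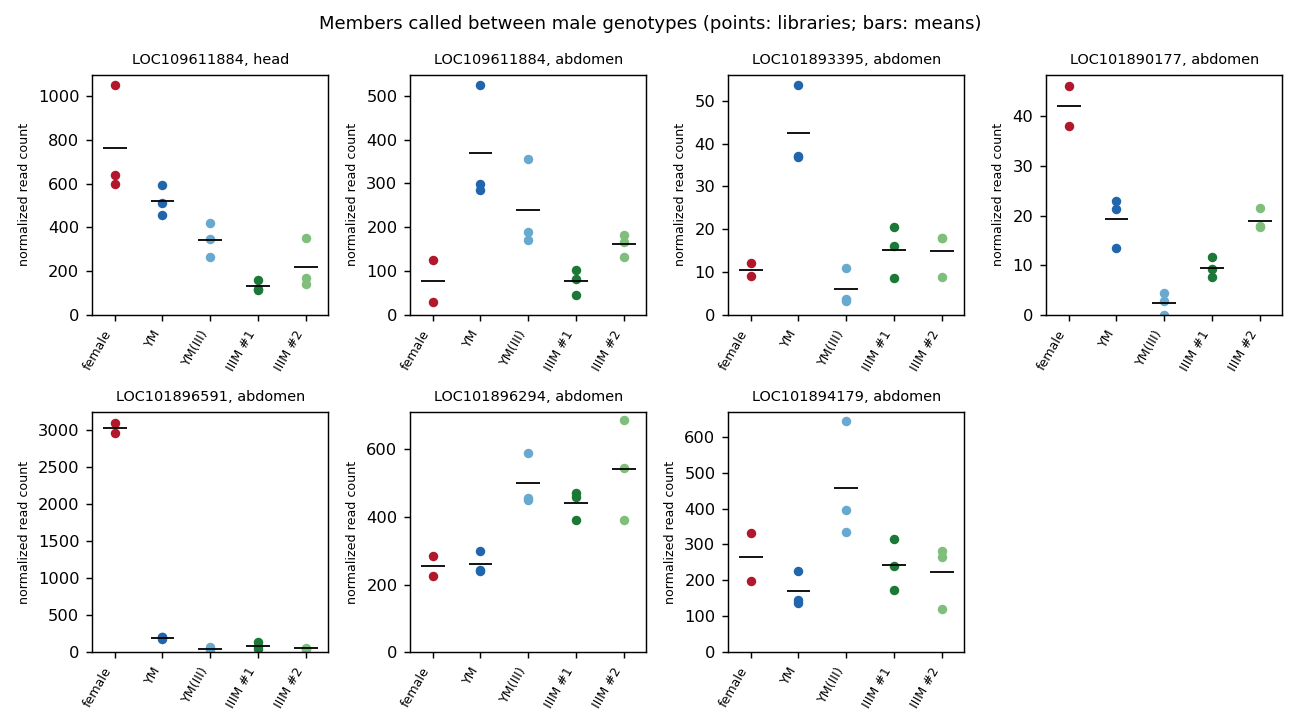
Normalized read counts by group for the members called between male genotypes, 1 point per library with bars at the means, females left of the 4 male genotypes. LOC109611884 has its highest male mean in YM in both tissues. In abdomen LOC101893395, LOC101890177 and LOC101896591 are higher, and LOC101896294 and LOC101894179 lower, in YM than in YM(III).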

How the data were processed

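Expression was measured in 29 head and abdomen libraries of male and female house flies. The submitters' processing notes name CASAVA 1.8 and HISAT2 0.12.2, and also HTSeq 0.9.1 with DESeq2 1.16.1, without their roles here. The build was not given in the sources used here. The values are normalized read counts deposited by the authors, a linear signal in which read counts are divided by 1 factor per library, with each tissue in its own table. All values (100%, within 0.001 reads) were whole multiples of the smallest one in their library. Whole reads could thus be had back, and summing them gave each depth. The authors also deposited log2 fold changes, mean levels and adjusted p-values of 4 comparisons per tissue.

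Tests used limma 3.58.1 (R 4.3.3) on log2(value + 1) over the 12 male libraries of a tissue, with 1 mean per genotype, trend and robust moderation. Genes had at least 10 in 3 or more male libraries, and p-values were adjusted over all genes tested, two-sided. On this scale the changes of low genes are understated. As alternatives, the recovered reads were fitted with edgeR 4.0.16 and with DESeq2 1.42.0. The fits were also run on simulated reads that held no replicate effect, so that run does not bear on the replicate 3 difference. Same-numbered male replicates deviated together in head (correlations 0.287 to 0.681) and for YM with YM(III) in abdomen (0.168 to 0.600), so these count as paired, from the data alone. Over all abdomen genotypes the lowest was 0.0686, between YM and IIIM #2 in replicate 1, so all 4 together were not counted as paired. The IIIM #1 abdomens taken alone did deviate with YM(III) (0.322 to 0.654) and with YM (0.239 to 0.567).

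Members and lists were chosen with earlier results of these data known. Named are the 12 members with the highest head ratio, the 5 with the highest female level, up to 3 called members per comparison, the 3 highest and 3 lowest abdomen ratios (with 20 or more in some library), the 3 widest and 3 narrowest in female heads, and 2 genes each side of the limit. Others were named after their values were seen. A planned description of sequence, motifs and neighbouring genes was not run, as no sequence table or placed coordinates were used here. Planned marker lists and named members by product found no product names. The reference gene table held 13644 of the identifiers and lacked 2896. Python 3.11.15 and matplotlib 3.10.9 drew the plots. Where a count is 0 in a library, up to 3 reads are allowed for by counting error alone.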

Additional observations from a re-analysis of the deposited data

Results flagged for a closer look

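LOC109611884 was picked out in head because 1 of the 6 IIIM libraries lay far from the others. IIIM #2 replicate 3 stood at 352 normalized reads while the other 5 lay between 116 and 169. Its gap to the nearest of them was 0.773 of the whole range, above Dixon's limit for a group of 6. By chance about 1 group in 20 is picked out this way, and many were looked at. The library is a replicate 3 male, and those heads lie apart on the first principal component. What sets the value was not tested.

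LOC101887803 was picked out because females and males lay in opposite order in the tissues. Its log2 female over male ratio was −1.99 in abdomen, where both females lay below every male, and 1.42 in head, where the 3 females lay above every male. The difference between the tissues was not tested, since the tables were normalized separately. The head direction was fixed by the choice of members.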

How the results depend on the processing

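Counts of members called changed with the tool, the block and the libraries used. Among male heads the F test called 4 members with the replicate block, 7 with DESeq2 and 16 with replicates 1 and 2 only, against 0. YM over IIIM gave 4 with DESeq2 (1.49% of all genes) and 4 with replicates 1 and 2 only, against 1. YM over YM(III) gave 2 with DESeq2 and 8 with replicates 1 and 2 only, against 0. IIIM #1 over IIIM #2 gave 1 with the replicate block, 1 with DESeq2 and 9 with replicates 1 and 2 only, against 0. With replicates 1 and 2 only, the shares of all genes were 13.5%, 4.65%, 10% and 4.05%, in that order of comparison. Leaving out 1 library gave 0 to 1 in each of these 4 head comparisons. In abdomen the F test called 0 with TMM factors, 0 with a pseudocount of 0.1 and 2 with a pseudocount of 5, against 1. It called 7 with the replicate block (13.1% of all genes), 0 with edgeR (2.46%) and 10 with DESeq2 (12.3%). Without the libraries under 1 M reads it called 0 (9 of all 11124 genes), and with 1 library left out 0 to 1. YM over YM(III) gave 2 with a mean of at least 50 and 3 with a pseudocount of 0.1, against 5. The same comparison gave 19 with the replicate block (21% of all genes) and 13 with DESeq2 (17.4%). Without the libraries under 1 M reads it gave 0 (247 of all 11124 genes), and with 1 library left out 0 to 5. YM over IIIM gave 1 with DESeq2, 0 with the replicate block, and 0 with any library left out. The block changed no other call. Leaving out the libraries under 1 M reads, and setting the rule on male replicate 3 only, were chosen after the data were seen.

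The rule itself passed 429 genes with male replicates 1 and 2 only, of which 81 of the 150 highest are members, and 492 with male replicate 3 only, of which 57 are, against 269. Leaving out 1 library gave 237 to 342. Without the IsoCS female head it was 342 with 118 shared, and without the CSrab female head 237 with 121 shared. Of the 110 members read in abdomen, 33 to 43 were at least 2-fold higher in females with 1 library left out, against 37. Both abdomen libraries with 0.79 M reads limit what can be seen in members with low values there.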
